A study of Rattus norvegicus with 4 samples.

Results

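Aminoacyl-tRNA synthetases are the enzymes that join each amino acid to its transfer RNA, and their genes were followed here in rat hippocampal progenitor cells treated with KHS101, a small molecule that promotes neuronal differentiation of these cells. The members were taken by gene symbol from a list of 38 genes: 19 cytosolic synthetase genes, 16 mitochondrial synthetase genes and 3 genes for scaffold proteins of the multisynthetase complex. Of these, 35 had a probe set named for them alone, 54 probe sets in all, among 14217 named genes and 31099 probe sets on the array. Lars2, Mars2 and Pars2 had none. The choice used symbols and no measured value, but it was made with earlier results of these data known.

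The cells came from Fisher 344 rats, of an age the labels do not state, and were hybridised to Affymetrix arrays, with 1 array for each of 4 groups. KHS101 was given at 5 uM or at 1.7 uM. The positive control, abbreviated RA+F, was 1 uM retinoic acid together with forskolin, an activator of adenylyl cyclase for which the labels state no concentration; the design text of the series mentions retinoic acid without forskolin. The negative control was 0.1% dimethyl sulfoxide (DMSO), the solvent. All groups share 4 days in N2 medium after early passage, per the labels' protocols. With 1 array per group, differences have no replicate check and no p-value, and so few arrays limit the precision. Values are log2 expression. A value of 5 was set as the floor of specific signal. A gene was measured in a comparison if at least 1 of its arrays was above the floor, and a call required at least 2-fold, a log2 difference of 1.

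The charging reaction has a separate enzyme set in each compartment. Cytosolic enzymes supply the cytosolic ribosome, and enzymes encoded by other nuclear genes are imported to supply the mitochondrial ribosome. Gars1 and Kars1 are the exceptions, as each encodes the enzyme of both compartments, and Eprs1 encodes a bifunctional protein that charges glutamate and proline. Several of the cytosolic enzymes are held in the multisynthetase complex by the scaffold proteins Aimp1, Aimp2 and Eef1e1. Uncharged transfer RNA activates the kinase GCN2 (Eif2ak4), which phosphorylates eIF2 and so increases translation of the transcription factor ATF4. In mouse and human cells ATF4 is known to raise transcription of many cytosolic synthetase genes.

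Among the arrays, 5 of 9 progenitor markers with a probe set were above the floor on every array, among them Nes with log2 values between 10.67 and 11.97 and Sox2 between 13.57 and 14.01. Pax6, Hes5, Sox1 and Prom1 were below it on all 4. No fibroblast marker of 6 was above the floor, nor was any microglia marker of 7 apart from P2ry12, which had signal with RA+F and in DMSO. Of the neuron markers 4 of 9 were above it on some array, with Dcx and Rbfox3 below throughout, and of the astrocyte markers 2 of 7, with Gfap and Aqp4 below throughout. With KHS101 at 5 uM and 1.7 uM, the progenitor marker Fabp7 differed from DMSO by -2.11 and -1.21 on the log2 scale, and Hes1 by 1.34 and 1.53. The neuron marker Gad1, below the floor in DMSO, differed by at least 2.95 and 2.04. Of the other neuron markers with signal, Tubb3 differed by 0.63 and 0.75 and Map2 by 0.14 and 0.21. Syn1 differed by -0.50, a bound because it was below the floor at 5 uM, and by -0.02. With RA+F, Tubb3, Map2 and Syn1 differed from DMSO by 1.14, 0.32 and 0.81. In the oligodendrocyte list 6 of 8 genes were above the floor at 5 uM. Of these, 5 were at least 2-fold lower than in DMSO, against 8.1% of all measured genes. With values below the floor set to 5, the mean log2 level of the 8 was 9.88 with KHS101 at 5 uM, 10.30 at 1.7 uM, 11.18 with RA+F and 10.87 in DMSO. Control probes of the 3' end were set against those of the 5' end as a sign of RNA quality. On the arrays in the same order, the 3' excess was log2 1.54, 1.40, 1.37 and 1.26 for beta-actin. It was 0.96, 0.80, 0.66 and 0.69 for hexokinase, and -0.11, -0.14, -0.12 and -0.16 for GAPDH. The part of cell makeup and RNA quality in the differences below was not tested. In a bulk sample, fewer cells of a type and less RNA per cell cannot be told apart.

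All 19 cytosolic synthetase genes were above the floor on all 4 arrays. With KHS101 at 5 uM, 11 of the 19 were at least 2-fold higher than in DMSO, against 6.16% of all measured genes, and 0 were lower, against 8.1%. Their median log2 difference was 1.04, beside 0.00 over all measured genes. With KHS101 at 1.7 uM, 8 of 19 were higher, against 4.36% of all measured genes, and 0 were lower, against 4.27%, with a median of 0.85 beside -0.01. The log2 difference was above 0 in 19 of 19 at 5 uM, while 50.2% of all measured genes were above 0, and in 18 of 19 at 1.7 uM, against 49%. Both comparisons use the same DMSO array. At 5 uM the difference was also above 0 in 31 of 36 initiation factors and 36 of 40 cytosolic ribosomal protein genes. It was above 0 in 37 of 73 mitochondrial ribosomal protein genes. At 3-fold the cytosolic counts were 3 of 19 at 5 uM, against 2.55% of all measured genes, and 1 of 19 at 1.7 uM, against 1.71%. At 1.5-fold they were 14 of 19, against 14.6%, and 13 of 19, against 10.5%.

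Eprs1, the glutamyl-prolyl synthetase, differed most among the members. Its log2 values were 14.74 with KHS101 at 5 uM and 14.53 at 1.7 uM, and 12.26 with RA+F, against 12.35 in DMSO. The KHS101 arrays were thus 5.22-fold and 4.52-fold above DMSO, in the order of the concentrations just given, while the positive control lay close to DMSO. At 5 uM Eprs1 ranked 90 of 8543 measured genes from the highest difference downward.

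Wars1, the tryptophanyl synthetase, had log2 values of 12.54 with KHS101 at 5 uM, 12.11 at 1.7 uM and 10.50 with RA+F, against 10.68 in DMSO. It was 3.64-fold higher at 5 uM and 2.71-fold higher at 1.7 uM. Sars1, which charges serine, had 13.62, 13.18 and 11.84 in the same order of treatments, against 11.93 in DMSO. The KHS101 arrays stood above the other arrays for both genes, with 3.23-fold and 2.38-fold for Sars1 at 5 uM and 1.7 uM.

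Nars1, for asparagine, had log2 values of 13.84 with KHS101 at 5 uM, 13.49 at 1.7 uM and 11.75 with RA+F, against 12.30 in DMSO. Lars1, for leucine, had 12.86, 12.73 and 11.20 in that order, against 11.31 in DMSO. At 5 uM these genes were about equally far from DMSO, at 2.92-fold for each. The leucyl enzyme is also known as a leucine sensor of the growth kinase mTORC1. The other measured probe set of Lars1 differed less, by 0.57 at 5 uM and 0.88 at 1.7 uM on the log2 scale, so its call rests on the brighter probe set.

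Yars1, for tyrosine, had log2 values of 13.20 with KHS101 at 5 uM, 13.04 at 1.7 uM and 11.20 with RA+F, against 11.78 in DMSO. Cars1, for cysteine, had 11.52, 11.20 and 9.34 in that order, against 10.11 in DMSO. For these genes the KHS101 arrays were above DMSO and the positive control was below it. Mars1, the methionyl synthetase, had 13.88, 13.77 and 12.26 in the same order, against 12.76 in DMSO, and its fold differences for KHS101 were 2.17 and 2.01.

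Aars1 (alanine), Gars1 (glycine) and Tars1 (threonine) were called at 5 uM and not at 1.7 uM. Aars1 had log2 values of 13.69 with KHS101 at 5 uM, 13.46 at 1.7 uM and 12.53 with RA+F, against 12.61 in DMSO. Gars1 had 13.43, 13.33 and 11.74, against 12.39 in DMSO, and Tars1 had 12.96, 12.63 and 11.28, against 11.96 in DMSO. These genes lie close to the threshold at 5 uM, with log2 differences of 1.08, 1.04 and 1.00, and Farsb, just outside it, had 0.93. At 1.7 uM their differences were 0.85 for Aars1, 0.94 for Gars1 and 0.67 for Tars1, so the calls differ through small steps around 2-fold.

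**Figure D1:**
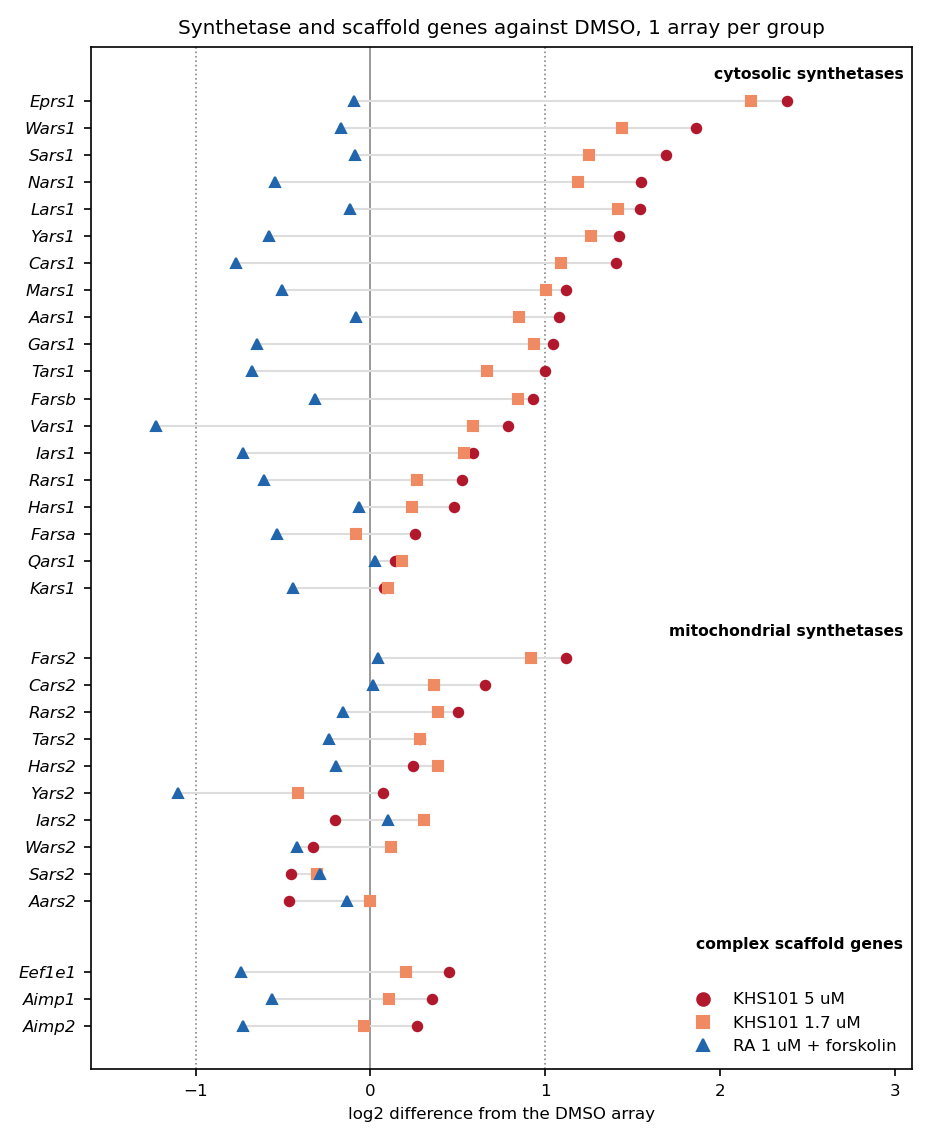
Each row is a measured member and the horizontal axis is its log2 difference from the DMSO array, for KHS101 at 5 uM (red circles), KHS101 at 1.7 uM (orange squares) and RA+F (blue triangles), with 1 array per group and dotted lines at 2-fold. Cytosolic genes spread between 0.08 and 2.38 at KHS101 5 uM, and Fars2 is the mitochondrial gene past 2-fold there.

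The remaining 8 cytosolic genes were not called with KHS101. Farsb and Farsa encode the subunits of the same phenylalanyl enzyme, yet at 5 uM their log2 differences were 0.93 and 0.25, and at 1.7 uM 0.84 and -0.08. Vars1 (valine) differed by 0.79 at 5 uM and 0.59 at 1.7 uM, and Iars1 (isoleucine) by 0.59 and 0.54. Rars1 (arginine) and Hars1 (histidine) differed by 0.52 and 0.48 at 5 uM. The smallest values at 5 uM were those of Qars1 (glutamine), 0.14, and Kars1 (lysine), 0.08. The log2 level of Kars1 was 12.65 with KHS101 at 5 uM and 12.67 at 1.7 uM, close to the 12.57 of DMSO. With RA+F its level was 12.13.

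Called and uncalled genes were found within the complex and within each enzyme class. Of the cytosolic members 7 belong to the multisynthetase complex, and their differences at 5 uM ran from 0.08 for Kars1 to 2.38 for Eprs1, with 3 of 7 higher. Outside the complex 8 of 12 were higher, and the share of all measured genes was 6.16%. Class I enzymes, whose catalytic domain is a Rossmann fold, were higher in 5 of 9 cases at 5 uM with a median of 1.12, and class II enzymes, built on an antiparallel sheet, in 5 of 9 with a median of 1.00. Eprs1 holds a domain of each class and was left out of this split.

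Of the 19 cytosolic genes, 12 are known as ATF4 targets in mouse or human cells. This list was written from general knowledge with results of these data known, so how it divides the called genes is a description and supports nothing. It held the 11 genes called at 5 uM and, uncalled, Iars1, against 6.16% of all measured genes called. The 7 other cytosolic genes ranged from 0.08 for Kars1 to 0.93 for Farsb. Atf4 itself was 3.87-fold higher at 5 uM and 3.32-fold higher at 1.7 uM than in DMSO, with log2 levels of 13.99, 13.77 and, with RA+F, 11.73, against 12.04 in DMSO.

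The promoters of cytosolic members were searched for the C/EBP-ATF response element, the composite site that ATF4 and C/EBP proteins are known to bind. The letters were TGATGNAA on either strand, in windows of RefSeq sequence (build GRCr8) from 250 bases before to 50 bases after a start site, and no other motif was searched. Windows were found for 36 of 38 members, all but Gars1 and Rars1. A match was present in 7 of 17 cytosolic genes, 0 of 16 mitochondrial genes and 0 of 3 scaffold genes. Over all symbols of the table the share was 4.16%, and over measured genes 1.93%. The matching genes were Aars1, Cars1, Iars1, Mars1, Nars1, Tars1 and Yars1. Among the 35 other amino acid response genes described further below, 9 of 31 with a window had a match. A match is a description of letters and not a bound site.

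The windows of the 6 matching genes with the greatest difference at 5 uM are shown because they share the element within genes that were higher together; the element is in capitals, and each sequence runs 5′ to 3′ on the strand of its gene.
Nars1, chr18:60275733-60276032, minus strand: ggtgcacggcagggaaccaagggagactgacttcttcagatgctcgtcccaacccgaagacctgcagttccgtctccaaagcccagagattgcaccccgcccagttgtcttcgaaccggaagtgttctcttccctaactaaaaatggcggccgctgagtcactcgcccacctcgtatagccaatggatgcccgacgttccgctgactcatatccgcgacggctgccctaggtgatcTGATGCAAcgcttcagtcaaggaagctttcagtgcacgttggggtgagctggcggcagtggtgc
Yars1, chr5:146819913-146820212, plus strand: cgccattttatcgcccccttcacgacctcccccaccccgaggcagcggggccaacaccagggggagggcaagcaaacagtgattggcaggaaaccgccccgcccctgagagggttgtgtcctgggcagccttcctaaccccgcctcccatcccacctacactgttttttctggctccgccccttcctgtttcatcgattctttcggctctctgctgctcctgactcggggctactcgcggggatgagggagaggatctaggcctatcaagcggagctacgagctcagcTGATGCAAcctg
Cars1, chr1:208225320-208225619, minus strand: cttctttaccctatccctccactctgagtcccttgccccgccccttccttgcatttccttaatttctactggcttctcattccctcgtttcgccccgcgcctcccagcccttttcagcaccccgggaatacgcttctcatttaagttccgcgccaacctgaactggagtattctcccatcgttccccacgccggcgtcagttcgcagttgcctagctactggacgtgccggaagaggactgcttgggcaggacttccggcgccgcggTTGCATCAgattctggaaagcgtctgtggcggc
Mars1, chr7:65023704-65024003, minus strand: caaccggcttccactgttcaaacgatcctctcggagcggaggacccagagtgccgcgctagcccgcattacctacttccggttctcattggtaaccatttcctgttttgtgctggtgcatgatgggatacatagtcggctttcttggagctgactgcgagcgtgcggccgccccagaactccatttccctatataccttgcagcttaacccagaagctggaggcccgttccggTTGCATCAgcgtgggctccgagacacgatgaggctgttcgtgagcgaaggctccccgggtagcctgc
Aars1, chr19:55908232-55908531, plus strand: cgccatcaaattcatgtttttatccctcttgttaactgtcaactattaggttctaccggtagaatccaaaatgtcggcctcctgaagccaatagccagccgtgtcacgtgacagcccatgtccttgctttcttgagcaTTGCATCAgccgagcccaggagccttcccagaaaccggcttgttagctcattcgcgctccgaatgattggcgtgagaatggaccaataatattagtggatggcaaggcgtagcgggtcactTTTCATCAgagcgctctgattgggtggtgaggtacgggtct
Tars1, chr2:62114753-62115052, minus strand: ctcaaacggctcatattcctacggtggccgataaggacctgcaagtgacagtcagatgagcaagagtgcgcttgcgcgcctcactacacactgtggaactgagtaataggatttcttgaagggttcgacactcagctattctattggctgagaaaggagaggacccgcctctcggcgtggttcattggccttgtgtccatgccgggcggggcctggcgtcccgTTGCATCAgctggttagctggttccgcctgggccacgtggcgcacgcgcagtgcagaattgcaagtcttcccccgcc
In Nars1 and Yars1 the element lies on the gene's own strand and in the other 4 on the opposite strand, so that the printed strand reads TTGCATCA. It begins at -14 in Nars1, -17 in Mars1 and -27 in Tars1, counted from the start site of the window, and at 39 in Yars1 and 18 in Cars1, which is inside the transcript. Aars1 holds a match at -112 and a further one, TTTCATCA, at 10. Its window starts 1788 bases inside the outermost annotated end of the gene, and that of Eprs1 1298 bases inside. Among mitochondrial genes, which had no match, the windows of Cars2 and Rars2 start 2490 and 1065 bases inside.

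The 7 cytosolic genes with the element had log2 differences between 0.59 for Iars1 and 1.55 for Nars1 at KHS101 5 uM. Of these, 6 of 7 were called, against 6.16% of all measured genes. The 10 with a window but no match ranged from 0.08 for Kars1 to 2.38 for Eprs1. Here 4 of 10 were called, Eprs1, Wars1, Sars1 and Lars1, against that same 6.16%. The spans overlapped, and the 3 largest differences, of Eprs1, Wars1 and Sars1, belong to genes whose window did not hold these letters. Hars1 and Hars2 are transcribed away from each other from starts 144 bases apart, so their windows share 243 bases; their log2 differences at 5 uM were 0.48 and 0.24.

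**Figure D2:**
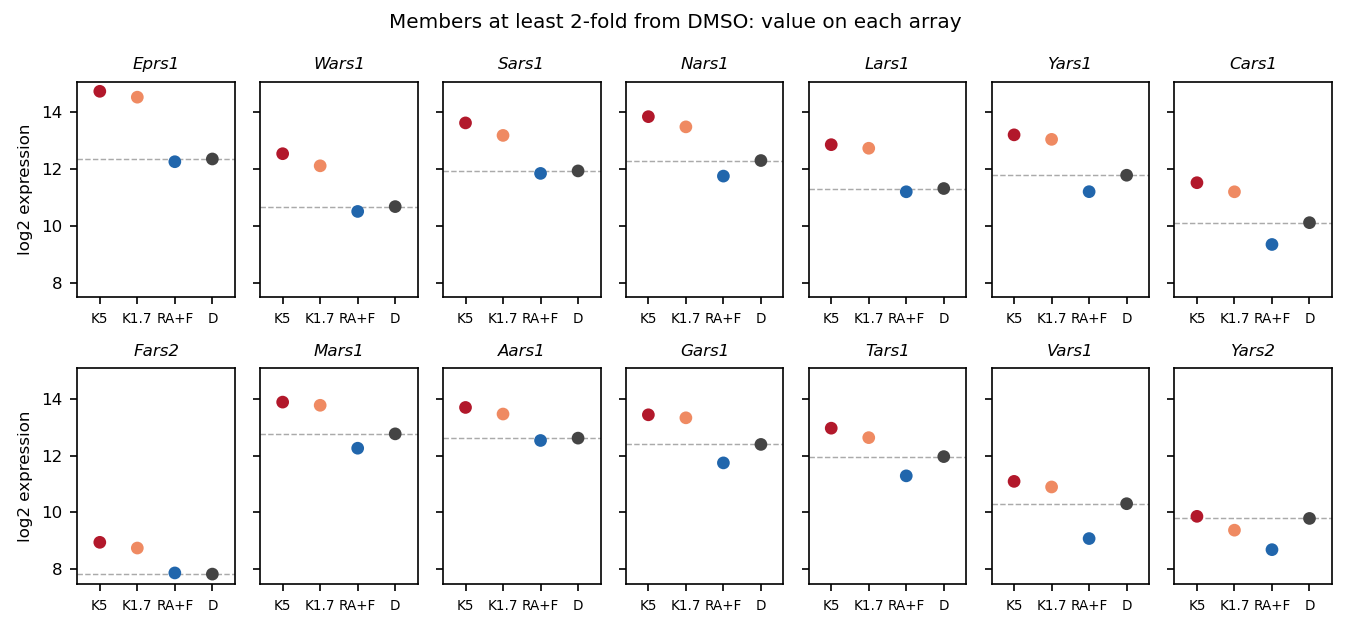
Each panel is a member at least 2-fold from DMSO in any comparison, and the vertical axis is its log2 expression on the single array of KHS101 at 5 uM (K5), KHS101 at 1.7 uM (K1.7), RA+F (RA+F) and DMSO (D, dashed line). The KHS101 points lie above the DMSO line in every panel except Yars2, where 9.86 at 5 uM is near the 9.78 of DMSO and 9.37 at 1.7 uM is below it.

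Mitochondrial synthetase genes lay closer to DMSO. Of 16 listed, 13 had a probe set, 10 were above the floor on at least 1 array and 9 on all 4. On the probe sets named for them alone, Ears2, Nars2 and Vars2 were below the floor throughout. With KHS101 at 5 uM, 1 of 10 was at least 2-fold higher and 0 were lower, close to the 6.16% and 8.1% of all measured genes, and the median log2 difference was 0.16. At 1.7 uM, 0 of 10 were called, against 4.36% of all measured genes higher and 4.27% lower, and the median was 0.30.

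The called gene was Fars2, the mitochondrial phenylalanyl enzyme. Its log2 values were 8.94 with KHS101 at 5 uM, 8.74 at 1.7 uM and 7.86 with RA+F, against 7.82 in DMSO. It was 2.17-fold higher at 5 uM and 1.89-fold higher at 1.7 uM. Both KHS101 arrays stood above the others, as for the cytosolic genes, whereas the cytosolic phenylalanyl subunit Farsa stayed at 0.25 and -0.08. Cars2 differed by 0.66 at 5 uM and Rars2 by 0.50, and Tars2 and Hars2 by 0.28 and 0.24. Yars2 differed by 0.07, Iars2 by -0.20, Wars2 by -0.33 and Sars2 by -0.46 at 5 uM. Aars2 was at the floor with KHS101 at 5 uM, so its difference of -0.47 is a bound and the gene may lie lower. The other measured probe set of Wars2 differed by 0.21 in place of -0.33, so its direction at 5 uM is unsettled.

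The mitochondrial partners of called genes had low to moderate levels. Cars2 had log2 values of 5.87 with KHS101 at 5 uM, 5.58 at 1.7 uM and 5.23 with RA+F, against 5.21 in DMSO. Tars2 had 9.77, 9.78 and 9.26 in that order, against 9.49 in DMSO. Both had their KHS101 arrays above DMSO, by less than 2-fold. Sars2 had 5.41, 5.56 and 5.57, against 5.86 in DMSO, and Wars2 had 6.70, 7.14 and 6.61, against 7.03 in DMSO. Aars2 had 4.86, 5.46 and 5.33, against 5.47 in DMSO, all near the floor. The cytosolic partners of Fars2 were Farsb, with 12.14, 12.05 and 10.90 against 11.21 in DMSO, and Farsa, with 9.73, 9.39 and 8.94 against 9.47 in DMSO.

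Cytosolic genes were set beside the mitochondrial gene for the same amino acid in 11 pairs, with Fars2 paired once with each cytosolic subunit. At KHS101 5 uM the cytosolic gene had the higher log2 difference in 9 of 11 pairs, with a median gap of 0.75. For serine the gap was 2.15, with 1.69 for Sars1 and -0.46 for Sars2. For tryptophan it was 2.19, with 1.86 for Wars1 and -0.33 for Wars2, or 1.66 with the other probe set of Wars2, so these pairs have no settled order. The gap was at least 1.55 for alanine, where Aars2 was at the floor with KHS101, and 1.35 for tyrosine. For arginine the genes lay together, 0.52 for Rars1 and 0.50 for Rars2. The histidine gap of 0.24 was -0.03 with the other probe set of Hars2, so its direction is unsettled. Phenylalanine ran the other way, with gaps of -0.87 for Farsa and -0.19 for Farsb. At 1.7 uM the cytosolic gene was higher in 7 of 11 pairs with a median gap of 0.38, and with RA+F in 5 of 11 with a median of -0.36, where the histidine gap of 0.13 was -0.25 with that other probe set.

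**Figure D3:**
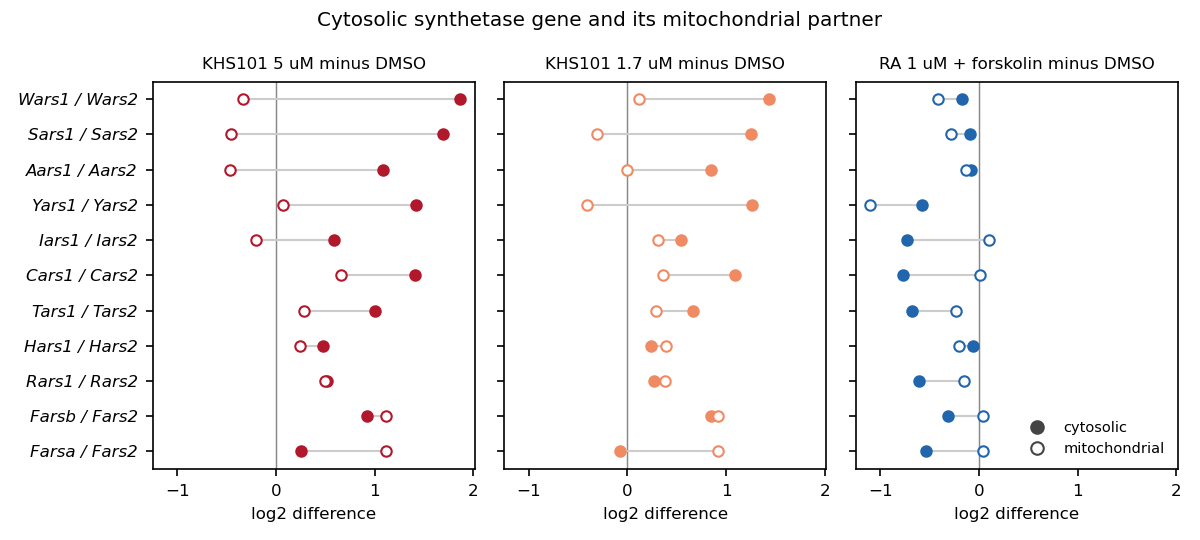
Each row pairs a cytosolic synthetase gene (filled) with the mitochondrial gene for the same amino acid (open), and the horizontal axis is the log2 difference from the DMSO array in each treatment, with 1 array per group. Filled points lie to the right of open ones in 9 of 11 rows for KHS101 at 5 uM and in 5 of 11 for RA+F.

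The scaffold genes were not called against DMSO. Aimp1 had log2 values of 12.43 with KHS101 at 5 uM, 12.18 at 1.7 uM and 11.51 with RA+F, against 12.07 in DMSO. Aimp2 had 12.36, 12.06 and 11.36 in that order, against 12.09 in DMSO. Eef1e1, also called AIMP3, had 12.88, 12.63 and 11.69, against 12.43 in DMSO. The array of KHS101 at 5 uM was highest and that of RA+F lowest for these 3 genes, with medians from DMSO of 0.35, 0.11 and -0.73 for the treatments in that order.

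Several members had more than 1 probe set above the floor, which gives a repeat measurement of probe noise on the same RNA and array. For 11 genes there were 13 other probe sets, and 12 of 13 differed from DMSO in the same direction as the probe set used at KHS101 5 uM, 13 of 13 at 1.7 uM and 12 of 13 with RA+F. The median size of disagreement was 0.27 at 5 uM, 0.16 at 1.7 uM and 0.19 with RA+F. For called genes, 7 of 8 other probe sets passed 2-fold too at 5 uM and 5 of 7 at 1.7 uM. The exceptions were Lars1 at either concentration and, at 1.7 uM, Cars1. The 3 measured probe sets of Eprs1 gave 2.38, 2.30 and 2.78 at 5 uM, and those of Wars1 1.86 and 2.08.

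**Figure D4:**
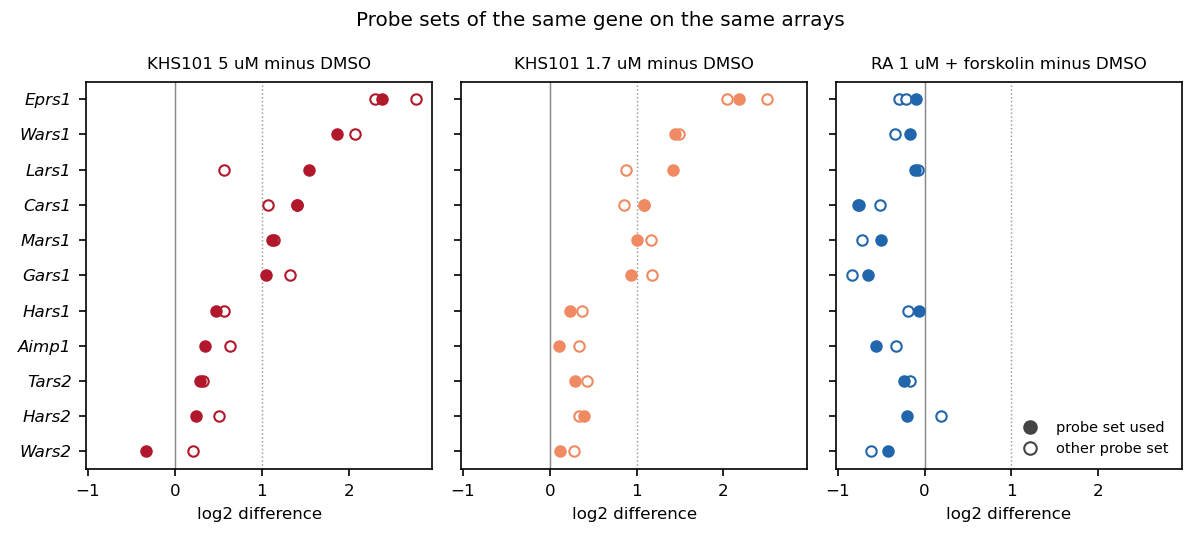
Rows are members measured by at least 2 probe sets, the horizontal axis is the log2 difference from DMSO, filled points are the probe set used and open points the others, with a dotted line at 2-fold. Lars1 shows the widest gap at KHS101 5 uM, 1.55 against 0.57, where the points of Wars2 lie on opposite sides of 0, as those of Hars2 do for RA+F.

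The concentrations of KHS101 were compared directly. Between 5 uM and 1.7 uM, 0 of 19 cytosolic genes were called in either direction, against 0.812% of all measured genes higher and 1.73% lower. The log2 difference was above 0 in 17 of 19, while 48.8% of all measured genes were above 0, and the median was 0.21. The greatest steps were Sars1, 0.44, and Wars1, 0.43, and Qars1 and Kars1 lay at -0.04 and -0.02. Mitochondrial genes had 0 of 10 called, 4 of 10 above 0 and a median of -0.07, or 0.04 with probe sets of several symbols, from -0.51 for Iars2 to 0.49 for Yars2. In this comparison 10 of 13 other probe sets had the direction of the probe set used, and the median size of disagreement was 0.10.

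With RA+F most cytosolic genes lay below DMSO, in a comparison that uses the same DMSO array as those of KHS101. Of 19 cytosolic genes 0 were higher than in DMSO, against 4.34% of all measured genes, and 1 was lower, against 3.15%. That gene was Vars1, with log2 values of 9.07 with RA+F against 10.30 in DMSO, 2.34-fold lower, and its KHS101 arrays had 11.09 at 5 uM and 10.89 at 1.7 uM. The difference was below 0 in 18 of 19 cytosolic genes, while 52.5% of all measured genes were below 0. Their median was -0.51, beside -0.03 over all measured genes, and at 1.5-fold 6 of 19 were lower, against 12.2%, and at 3-fold 0 of 19, against 0.398%. Cars1 had -0.77, Iars1 -0.73, Tars1 -0.68 and Gars1 -0.65, and Qars1 was the gene above 0, at 0.03. Other translation lists, described below, leaned below 0 with RA+F too. There 31 of 36 initiation factors and 57 of 64 genes of transfer RNA processing were below 0. So were 35 of 40 cytosolic and 68 of 73 mitochondrial ribosomal protein genes.

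Among mitochondrial genes with RA+F, 1 of 10 was lower, against 3.15% of all measured genes, 0 were higher, against 4.34%, and the median was -0.18. That gene was Yars2, the tyrosyl enzyme of the mitochondrion, with log2 values of 8.68 with RA+F against 9.78 in DMSO, 2.14-fold lower. Its KHS101 values were 9.86 at 5 uM and 9.37 at 1.7 uM, on either side of DMSO. Iars2 was the highest at 0.10.

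KHS101 was also set against the positive control, a comparison that uses no DMSO array. At 5 uM, 15 of 19 cytosolic genes were at least 2-fold higher than with RA+F, against 8.94% of all measured genes, and 0 were lower, against 10.2%. The median log2 difference was 1.66, from 0.12 for Qars1 to 2.48 for Eprs1. At 1.7 uM 13 of 19 were higher, against 5.93%, and 0 were lower, against 5.39%, with a median of 1.35. At 3-fold 11 of 19 were higher at 5 uM, against 3.53%, and 7 of 19 at 1.7 uM, against 1.97%; at 1.5-fold the counts were 16 of 19, against 18.7%, and 15 of 19, against 13.8%. Vars1, not called for KHS101 against DMSO, differed by 2.02 at 5 uM and 1.82 at 1.7 uM here. Among mitochondrial genes Fars2 and Yars2 were higher at 5 uM, by 1.08 and 1.17, and 0 of 10 were called at 1.7 uM. The scaffold gene Eef1e1 was 1.19 higher at 5 uM, and Aimp2 and Aimp1 were 1.00 and 0.92 higher.

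Other genes of translation were counted from lists by role. Of 36 measured initiation factors and their binding proteins, 2 were higher with KHS101 at 5 uM, near the 6.16% of all measured genes. In this list 0 were lower, against 8.1%, and 31 of 36 were above 0, against 50.2%, with a median of 0.33. At 1.7 uM 2 were higher, against 4.36%, and 0 lower, against 4.27%. The higher genes were Eif4ebp1, which blocks cap-dependent initiation, 4.82-fold higher at 5 uM, and Eif2b3, a subunit of the eIF2 exchange factor, 3.06-fold higher. With RA+F 1 of 36 was lower, against 3.15% of all measured genes: Eif4ebp1 at 2.01-fold. Of 16 elongation and release factors, 2 were higher at 5 uM, Gtpbp2, a factor for stalled ribosomes, by 9.60-fold and the kinase Eef2k by 2.78-fold, and Gtpbp1 was the 1 lower gene, at 2.04-fold, in a list too short to set apart from the 6.16% and 8.1% of all measured genes. Cytosolic ribosomal protein genes had 0 of 40 called at either concentration and a median of 0.17 at 5 uM. The shares of all measured genes were 6.16% higher and 8.1% lower at 5 uM, and 4.36% and 4.27% at 1.7 uM.

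Genes that handle transfer RNA itself were at least 2-fold higher with KHS101 at 5 uM about as often as all measured genes. Xpot, the exporter of transfer RNA from the nucleus, was 3.53-fold higher at 5 uM and 2.79-fold higher at 1.7 uM, with log2 levels of 13.15, 12.81 and, with RA+F, 10.66, against 11.33 in DMSO. It was the 1 higher gene of 11 measured in its list, against 6.16% of all measured genes, and Ptrhd1 was the 1 lower gene, against 8.1%, by 2.59-fold at 5 uM. Of 65 genes of transfer RNA processing and modification, 4 were higher at 5 uM, which is 6.15% against 6.16% of all measured genes. In that list 0 were lower, against 8.1%, and the median was 0.25. The higher genes included Trit1, an isopentenyl transferase, at 2.53-fold, with Trmt1l at 2.19-fold and Qtrt1, part of the queuine transferase, at 2.15-fold. With RA+F 9 of 64 were lower, against 3.15% of all measured genes, and 1 was higher, against 4.34%, with a median of -0.31. The lower genes included Pop1, a subunit of RNase P, at 4.40-fold, Dus4l at 2.66-fold, and the partners Mettl1 and Wdr4 of the 7-methylguanosine enzyme, at 2.53-fold and 2.50-fold.

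Mitochondrial translation factors had 0 of 21 called with KHS101 at either concentration or with RA+F. Of all measured genes, 6.16% were higher and 8.1% lower at 5 uM, 4.36% and 4.27% at 1.7 uM, and 4.34% and 3.15% with RA+F. Mitochondrial ribosomal protein genes had 0 of 73 higher and 2 lower at 5 uM, against 6.16% and 8.1% of all measured genes, with a median of 0.01; the lower genes were Mrpl14 at 2.18-fold and Mrpl42 at 2.03-fold, and with RA+F the median was -0.32 and 1 of 73 was lower, against 3.15%, which was Mrpl38 at 2.38-fold. The medians at 5 uM were 0.25 for the factors and 0.16 for the mitochondrial synthetases, and that of the synthetases ranged from 0.07 with no floor to 0.24 with the floor at 4.

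The amino acid response genes that are no synthetases had the highest median of the lists at 5 uM. This list was chosen with earlier results of these data known, so its counts and medians are a description and support nothing. Of 31 measured, 27 were higher at 5 uM, against 6.16% of all measured genes, and 0 were lower, against 8.1%, with a median of 2.09. At 1.7 uM 24 of 30 were higher, against 4.36%, with a median of 1.67. The log2 differences at 5 uM of Cth, Nupr1, Atf3 and Gdf15 were 6.37, 5.03, 4.51 and 2.21. These are lower bounds, as the genes were at the floor in DMSO. Of the genes measured above it in DMSO too, the greatest differences at 5 uM were those of Trib3, a pseudokinase that inhibits ATF4, Slc7a11, the cystine transporter, Chac1, which degrades glutathione, and Cebpb, at 7.09, 4.88, 4.49 and 3.86 on the log2 scale. With RA+F 0 of 27 were higher, against 4.34%, and 4 were lower, against 3.15%, with a median of -0.15; these were Pck2, Mthfd2, Slc7a1 and Shmt2. The kinases of eIF2 were not called: Eif2ak4 (GCN2) differed by 0.36 at 5 uM, Eif2ak3 (PERK) by 0.20, Eif2ak1 (HRI) by -0.13 and Eif2ak2 (PKR) by -0.28. RNA levels do not report the activity of these kinases. In their list of 17, 2 were higher at each concentration, against 6.16% of all measured genes at 5 uM and 4.36% at 1.7 uM. These were Atf4 and Ppp1r15a, a subunit of the eIF2 phosphatase. Ppp1r15a was higher by 19.0-fold at 5 uM and 4.94-fold at 1.7 uM. Reference genes had 0 of 8 measured members called in any comparison with DMSO. That list is too short to set apart from the shares of all measured genes.

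**Figure D5:**
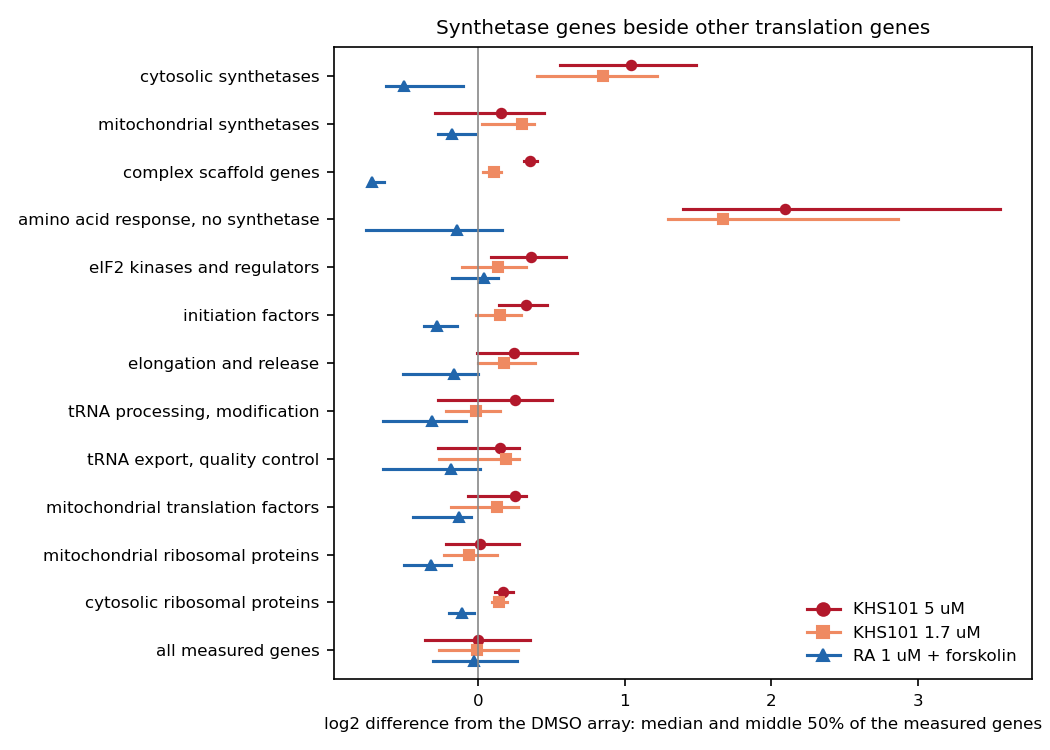
Symbols give the median log2 difference from DMSO of the measured genes of each list and bars their middle 50%, for KHS101 at 5 uM, KHS101 at 1.7 uM and RA+F, with 1 array per group. Cytosolic synthetases lie at 1.04 at KHS101 5 uM, between the amino acid response genes at 2.09 and the other lists, whose medians there are 0.36 or lower.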

How the data were processed

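The values the authors deposited are log2 expression per probe set. The submitters' processing notes list GCRMA and R 2.6.2, without saying for which step, and no genome build. The scale was read off the numbers themselves (array medians from 3.67 to 3.76). Sorted values of the 4 arrays lay a median of 0.06 apart at the same rank, so a shared shift of most genes would not show. GCRMA gives low values without meaning to probe sets without specific signal, so values under 5 were raised to 5; between 45.4% and 45.9% of probe sets lay above.

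Of the probe sets, 57 were controls, 20826 had 1 gene symbol, 436 had several and 9780 were unnamed here; the last 2 kinds were not used. The platform annotation's gene identifiers matched the RefSeq table (GRCr8) for 20758, and 0 symbols changed. Where a gene had several probe sets, the brightest by mean stood for it. No test was run. Members and lists were chosen with earlier results of these data known. Members at least 2-fold from DMSO and their partners are given with values; from each list, up to 4 of the largest differences. The counting was tested on simulated data. Calculations used Python 3.11.15 with numpy 2.4.6 and pandas 2.3.3. Alternatives were the floor, the probe set rule, the fold threshold, the scaling, probe sets with several symbols, and leaving out Gars1 and Kars1.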

Additional observations from a re-analysis of the deposited data

How the results depend on the processing

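No paired analysis was possible because each group has 1 array. Across 558 recomputed counts and medians, 539 stayed within 1.5 times the count or, for a median, within the spread of repeat probe sets, and 19 moved. The 1 median that changed sign was that of the mitochondrial genes between KHS101 at 5 uM and 1.7 uM, -0.07, which was 0.04 with probe sets of several symbols. The mitochondrial median of KHS101 at 5 uM against DMSO, 0.16, was 0.07 with no floor and 0.24 with the floor at 4 or 6. Of 759 values of single genes 743 stayed so and 16 moved, all of them with the mean of all probe sets. Most of the moves of counts followed the threshold. At 3-fold the cytosolic genes higher than in DMSO numbered 3 at KHS101 5 uM and 1 at 1.7 uM, and 7 were higher at 1.7 uM than with RA+F; cytosolic and mitochondrial genes lower with RA+F than in DMSO numbered 0, and so did mitochondrial genes higher at 5 uM than in DMSO, and mitochondrial and scaffold genes higher at 5 uM than with RA+F. At 1.5-fold, 13 cytosolic genes were higher at 1.7 uM than in DMSO, and 6 cytosolic and 2 scaffold genes were lower with RA+F. Mitochondrial genes higher than in DMSO then numbered 2 at 5 uM and 1 at 1.7 uM; against RA+F 4 and 3 mitochondrial genes and, at either concentration, 3 scaffold genes were higher. With the mean of all probe sets, which brings in probe sets below the floor, 0 cytosolic genes were lower with RA+F, and the cytosolic median of KHS101 5 uM minus RA+F was 1.16 in place of 1.66. Centring or quantile normalization shifted the median of all genes by at most 0.04 in size. The probe set with the symbol Mars2 under more than 1 gene identifier, used in an alternative, had log2 values of 8.38 with KHS101 at 5 uM, 8.30 at 1.7 uM and 7.69 with RA+F, against 8.36 in DMSO. Ears2, Nars2 and Vars2 had no value above the floor on the probe sets named for them alone. The Ears2 probe set brought in by that alternative had log2 values of 5.96 with KHS101 at 5 uM, 5.38 at 1.7 uM and 4.22 with RA+F, against 5.50 in DMSO.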
